A study of Mus musculus with 6 samples.

Results

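The Apoa1-Apoc3-Apoa4-Apoa5 cluster is a run of 4 adjacent apolipoprotein genes on mouse chromosome 9. Every array feature annotated with the symbol of exactly 1 of these genes was kept, which gave 5 features for the 4 genes, out of 21218 features for 18820 genes: 1 feature each for Apoa1, Apoc3 and Apoa5, and a brighter and a dimmer feature for Apoa4. Expression was measured in primary hepatocytes, liver cells freed by perfusion and digestion and kept in culture, from male wildtype C57BL/6J mice aged 8 to 10 weeks. The 60 mm dishes received a control adenovirus for green fluorescent protein (Ad-GFP) or one for the nuclear form of CREBH (Ad-nuclear CREBH, which some labels call Ad-CREBH3), each at a multiplicity of infection of 100. RNA was taken 24 h later from 3 dishes per group and hybridized to 1 array per dish. All 6 cultures had thus received an adenovirus, and none was left without one. Whether the dishes of a group came from separate animals is not stated, so the tests cover the spread among these dishes alone, which may be technical.

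CREBH, the product of Creb3l3, is a transcription factor of hepatocytes and enterocytes that is made as a membrane protein of the endoplasmic reticulum and freed by proteolysis to enter the nucleus. Apolipoproteins are the proteins of lipoprotein particles, which carry cholesterol and triglyceride in plasma. The genes of this cluster lie close together and are expressed in liver and intestine, with Apoa5 largely restricted to liver. Some of them share control regions, and Apoc3 is read in the opposite direction to its neighbors. Apolipoprotein A-I is the main protein of HDL, apolipoprotein A-IV travels on chylomicrons and HDL, and apolipoproteins C-III and A-V act in opposite ways on triglyceride in plasma, C-III slowing and A-V promoting its hydrolysis by lipoprotein lipase.

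As a check of the labels, the Creb3l3 feature was at 8.49, 8.02 and 8.21 (log2 values) on the Ad-GFP arrays and at 9.97, 10.46 and 10.59 on the Ad-nuclear CREBH arrays, without overlap, and transcripts of the virus and of the mouse gene cannot be told apart in this value. The medians of the arrays over these 21218 named features were 5.20, 5.32 and 5.35 (log2) for Ad-GFP and 5.12, 5.17 and 5.14 for Ad-nuclear CREBH. They were thus lower in the Ad-nuclear CREBH group, without overlap. Within groups, the array of replicate 1 had the lowest mean correlation with the others of its group in both groups, at 0.987 for Ad-GFP and 0.992 for Ad-nuclear CREBH. Of all 21218 features, 3953 rose and 3837 fell at a Benjamini-Hochberg adjusted p under 0.05 from limma's moderated test. When each array was centred on its median instead, 5469 rose and 3121 fell, since under that scaling the median log2 fold change over all features was 0.18 and not 0.034. All 11 measured hepatocyte markers lay above the median level of all features, the brightest being Alb (albumin) at a mean log2 value of 13.28 and Hpx (hemopexin) at 13.15, and the lowest Fabp1, a fatty acid-binding protein, at 6.05.

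Windows around the start sites of Apoa1, Apoa4 and Apoa5 (none was available for Apoc3) are shown because the cluster features rose together. They were taken from RefSeq (GRCm38.p6), run from 250 bases before to 50 bases after the annotated start, and are written 5′ to 3′ on the plus strand, which is the strand of all 3 genes. Capitals mark matches, on either strand, to the letters listed after them.
Apoa1, chr9:46228380-46228679: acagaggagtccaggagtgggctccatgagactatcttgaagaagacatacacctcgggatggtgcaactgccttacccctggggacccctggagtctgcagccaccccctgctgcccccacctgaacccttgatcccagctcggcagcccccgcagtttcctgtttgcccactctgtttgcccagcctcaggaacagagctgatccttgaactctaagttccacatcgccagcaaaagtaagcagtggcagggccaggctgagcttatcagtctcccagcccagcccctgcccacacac
Apoa4, chr9:46240594-46240893: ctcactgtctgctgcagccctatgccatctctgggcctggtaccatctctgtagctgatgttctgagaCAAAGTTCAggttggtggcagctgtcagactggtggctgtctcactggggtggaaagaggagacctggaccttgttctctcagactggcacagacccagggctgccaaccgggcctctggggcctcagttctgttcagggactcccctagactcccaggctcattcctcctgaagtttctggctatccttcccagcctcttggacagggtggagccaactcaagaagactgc
Apoa5, chr9:46268358-46268657: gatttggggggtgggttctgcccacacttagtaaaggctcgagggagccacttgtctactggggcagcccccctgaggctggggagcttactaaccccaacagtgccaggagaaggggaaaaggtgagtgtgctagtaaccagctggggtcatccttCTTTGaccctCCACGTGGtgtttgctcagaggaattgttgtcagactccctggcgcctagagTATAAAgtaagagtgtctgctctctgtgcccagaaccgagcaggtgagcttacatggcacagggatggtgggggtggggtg

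The letters searched on both strands were TGACGTCA, the cyclic AMP response element, and its shorter core TGACG. For elements bound by bZIP factors of the unfolded protein response, the letters were ACGTG (UPRE core) and CCACG (ERSE part). The E-box was searched as CACGTG, which contains the UPRE core, and the nuclear receptor element as AGGTCA. HNF4-type elements were searched as CAAAGTTCA or CAAAGTCCA and by their first letters, CAAAG. The TATA box was searched as TATAAA and the CCAAT box by its name. Of 32851 RefSeq windows of the same length, 1.79% held the cyclic AMP response element, 20.8% its core, 19.6% the UPRE core, 32.8% the ERSE part, 7.15% the E-box, 16.3% the nuclear receptor element, 0.39% and 0.475% the HNF4-type elements in the order given, 53.9% their first letters, 13.6% the TATA box and 37.4% the CCAAT box.

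The Apoa1 window held none of these letters and is therefore all in lower case. The Apoa4 window held the first of the HNF4-type elements from position -182 relative to the start. The Apoa5 window held the TATA box at position -31 and, on the minus strand, the first letters of the HNF4-type elements at -93. From -83 it held the palindrome CCACGTGG, in which the E-box overlaps the UPRE core and the ERSE part on both strands. A second annotated Apoa5 start lies shortly downstream, and its window holds the same matches and a further one to the first letters of the HNF4-type elements. These matches are descriptions of the windows, and letters not found there say nothing of binding elsewhere in the cluster.

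All 5 features of the cluster were higher in hepatocytes transduced with Ad-nuclear CREBH than in those transduced with Ad-GFP. Each rose at an adjusted p under 0.05, which 18.6% of all features did. All 5 lay above the median level of all features, where 3173 of 10609 features rose when only these were tested. On each, all Ad-nuclear CREBH arrays lay above all Ad-GFP arrays, which held for 25.6% of all features. Only the dimmer Apoa4 feature met the criteria of the methods (unadjusted p under 0.001, fold change over 2, linear group mean over 300), which 4.68% of all features met in the upward direction. In bulk cultures, more cells of a type and more RNA per cell cannot be told apart. No hepatocyte marker rose with the cluster: of 11 measured, 0 rose and 6 fell by limma's adjusted p (0 and 7 at an unadjusted p under 0.05), against 18.6% and 18.1% of all features, and their summed linear level (2 to the power of the log2 value) was between 45913 and 50157 on the Ad-GFP arrays and between 35683 and 39501 on the Ad-nuclear CREBH arrays. The median log2 fold change of the list was -0.37. These 11 markers lay above the median level of all features, where 3400 of 10609 features fell when tested by themselves. Named after their values had been seen, Fgb, a chain of fibrinogen, had a log2 fold change of -2.29 (adjusted p = 2.09e-04 from limma), Tat, tyrosine aminotransferase, -2.17 (adjusted p = 0.00375), Rbp4, the plasma retinol carrier, -1.25 (adjusted p = 4.04e-04), Cps1, an enzyme of the urea cycle, -1.21 (adjusted p = 0.00173) and Ahsg, fetuin-A, -0.75 (adjusted p = 9.07e-04). Hpx fell by 0.32 on the log2 scale (adjusted p = 0.00282 from limma) but did not pass with arrays centred on their medians, and Alb was at -0.01 (adjusted p = 0.844), or 0.13 with that centring. Also named after their values had been seen, Ttr was at 0.02 (adjusted p = 0.927 from limma), Fabp1 at -0.11 (adjusted p = 0.885) and Trf at -0.19 (adjusted p = 0.0734). Like Alb and Hnf4a, which is given below, they did not pass.

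The mRNA abundance of Apoa1, which encodes the main structural protein of HDL and the cofactor of LCAT, was 12.19, 12.22 and 12.23 (log2) on the Ad-GFP arrays and 12.90, 12.93 and 13.01 on the Ad-nuclear CREBH arrays. The replicates of each group lay close together, and the groups were 0.67 apart on the log2 scale at their nearest values. This was a 1.66-fold increase, or 0.74 on the log2 scale (adjusted p = 3.87e-05 from limma, SE 0.053), which lay between 0.70 and 0.76 with any 1 array left out.

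Apoc3, which encodes the apolipoprotein that slows the hydrolysis and hepatic uptake of triglyceride-rich particles, was at 12.10, 12.15 and 12.06 (log2) in Ad-GFP cultures and at 12.48, 12.51 and 12.54 in Ad-nuclear CREBH cultures. This was the smallest estimate among the 5 features, with replicates as close together as those of Apoa1. The log2 fold change was 0.41 (adjusted p = 6.46e-04 from limma, SE 0.054), or 1.33-fold, and 0.39 to 0.43 with any 1 array left out.

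Apoa4, which encodes an apolipoprotein made mainly by the intestine and, in mice, also by the liver, was read by 2 features that gave different sizes of change. The brighter feature was at 12.99, 12.75 and 13.09 (log2) on the Ad-GFP arrays and at 13.47, 13.50 and 13.51 on the Ad-nuclear CREBH arrays. Its spread narrowed from an SD of 0.17 to an SD of 0.020 (n = 3 each). The change was 1.46-fold, or 0.55 on the log2 scale (adjusted p = 0.00111 from limma, SE 0.082). On the Ad-nuclear CREBH arrays this feature lay 0.026 to 0.065 below the highest value of any named feature, against 0.38 to 0.70 below it on the Ad-GFP arrays, and whether the top of the measuring range limits its change was not tested.

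The dimmer Apoa4 feature was at 8.43, 7.06 and 7.77 (log2) on the Ad-GFP arrays and at 10.28, 10.07 and 10.60 on the Ad-nuclear CREBH arrays. The groups were far apart, although the Ad-GFP arrays spread over more than 1 log2 unit. The rise was 5.91-fold, or 2.56 on the log2 scale (adjusted p = 4.34e-04 from limma, SE 0.32), and 2.21 to 2.90 with any 1 array left out. Ad-GFP replicate 2 was the lowest array for both Apoa4 features. The numbers that name the features place the brighter Apoa4 feature beside Apoa1 and Apoa5, and the dimmer one beside Apoc3. Of the features numbered next to the dimmer one whose gene has a strand in RefSeq, 12 of 12 were on the minus strand, against 2 of 13 for the brighter one, while Apoa4 itself is on the plus strand. Whether the dimmer feature reads the Apoa4 transcript on its own strand was not tested, and the larger change is therefore reported as that of the feature.

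Apoa5, which encodes the apolipoprotein that promotes triglyceride hydrolysis at lipoprotein lipase, was at 7.32, 7.77 and 7.50 (log2) in Ad-GFP cultures and at 7.78, 8.70 and 8.76 in Ad-nuclear CREBH cultures. Replicate 1 of the Ad-nuclear CREBH group was only 0.0084 above the highest Ad-GFP array, and the other two were nearly 1 log2 unit higher. On the log2 scale the rise was 0.88 (adjusted p = 0.0335 from limma, SE 0.27), or 1.84-fold. The call was lost when all 35556 rows of the table, named or not, were tested (adjusted p = 0.0575) and without Ad-GFP replicate 1 (0.78, adjusted p = 0.0741), Ad-GFP replicate 3 (0.87, adjusted p = 0.0845), Ad-nuclear CREBH replicate 2 (0.74, adjusted p = 0.123) or Ad-nuclear CREBH replicate 3 (0.71, adjusted p = 0.123), whereas without Ad-nuclear CREBH replicate 1 the log2 fold change was 1.20 (adjusted p = 0.00164).

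**Figure D1:**
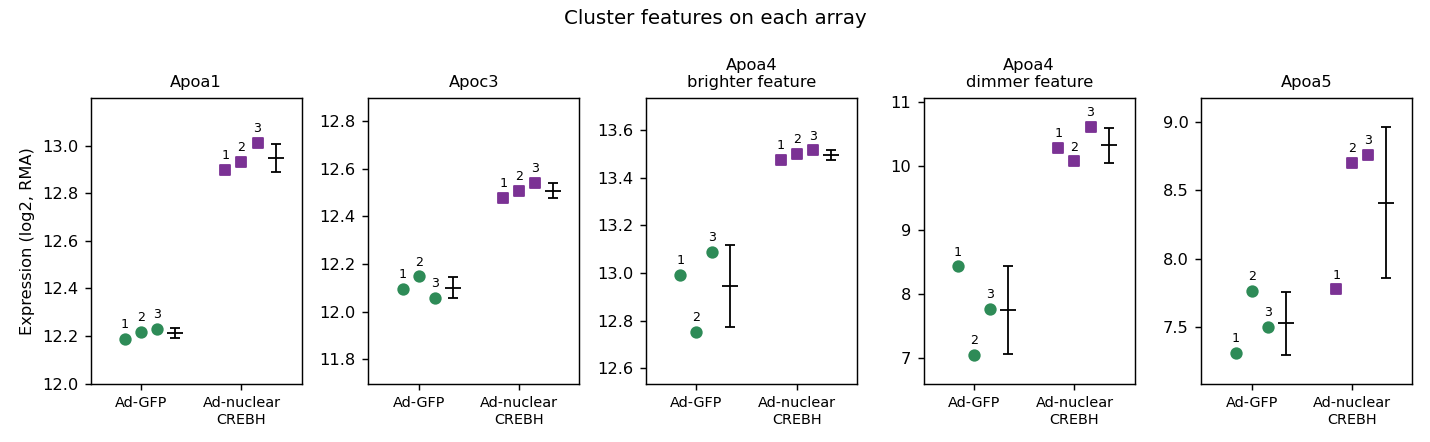
Expression (log2, RMA) of each cluster feature on the 3 Ad-GFP arrays (circles) and the 3 Ad-nuclear CREBH arrays (squares), with replicate numbers above the points and the mean ± SD of each group beside them; the vertical scale differs between panels. The groups do not overlap on any of the 5 features, by 0.67 for Apoa1 and by only 0.0084 for Apoa5.

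Differences in the size of change were compared in 10 pairs of features, each as the difference of the log2 values on the same array, with an exact two-sided permutation test that cannot give a p under 0.1 with 3 arrays against 3. Apoa1 rose by 0.33 more than Apoc3 on the log2 scale (SE 0.036), with every Ad-nuclear CREBH array above every Ad-GFP array in this difference, at the smallest exact p of 0.1 (adjusted over the pairs 0.2). The dimmer Apoa4 feature rose by 2.01 more than the brighter one (SE 0.37), by 1.83 more than Apoa1 (SE 0.43), by 2.16 more than Apoc3 (SE 0.44) and by 1.68 more than Apoa5 (SE 0.62), each likewise without overlap and at the smallest p. Since the brighter feature was close to the highest named value on the Ad-nuclear CREBH arrays, differences from it hold for the values as deposited. The remaining 5 pairs overlapped. Among them, Apoa1 minus the brighter Apoa4 feature was 0.18 (SE 0.10), and Apoa1 minus Apoa5 was -0.15 (SE 0.32), a difference that was 0.0049 without Ad-nuclear CREBH replicate 2 (exact p of 0.3 and 0.8). Apoc3 minus the brighter Apoa4 feature was -0.14 (SE 0.13), Apoc3 minus Apoa5 was -0.48 (SE 0.32) and the brighter Apoa4 feature minus Apoa5 was -0.33 (SE 0.38), so that the order of these rises was not resolved.

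Apoa1, Apoc3 and the brighter Apoa4 feature were among the brightest features of the arrays. Above a mean log2 value of 12, a limit chosen after the values had been seen, there were 249 features, of which 21 rose and 44 fell, with a median log2 fold change of -0.084 and a range of -1.16 to 0.89. In the order of log2 fold change among these, Apoa1, the brighter Apoa4 feature and Apoc3 took places 2, 6 and 7. These are places among features and not among genes, since some genes, such as Gapdh, Rpl10 and Rps12, had many of the features. Among all 21218 features, whose dim members reach much larger changes, the log2 fold changes of Apoc3, the brighter Apoa4 feature, Apoa1, Apoa5 and the dimmer Apoa4 feature stood at percentiles 80.5, 84.1, 87.4, 89.7 and 98.6.

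**Figure D2:**
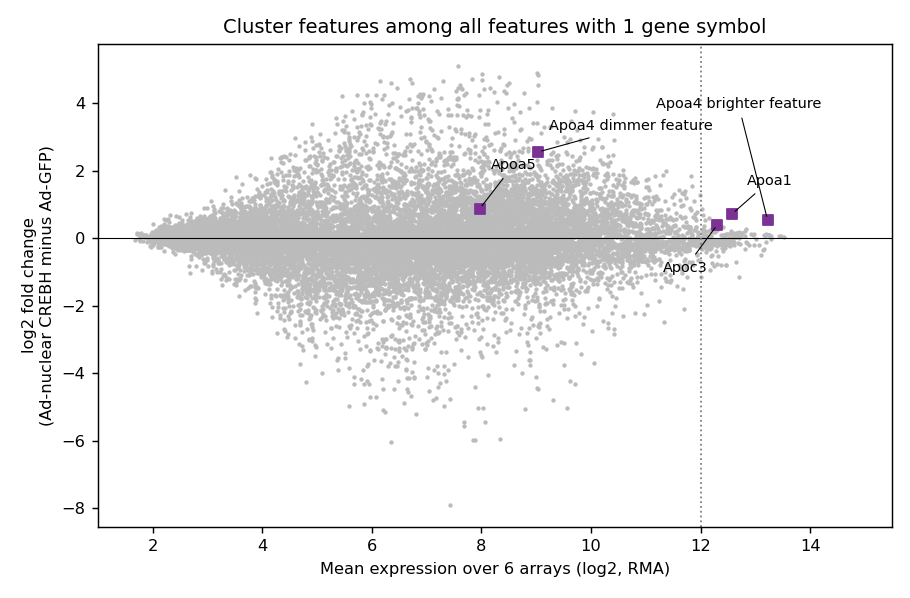
The log2 fold change (Ad-nuclear CREBH minus Ad-GFP) of all 21218 features with 1 gene symbol (grey points) against their mean log2 value over the 6 arrays, with the 5 cluster features as squares and a dotted line at 12. Features to the right of the line lie between -1.16 and 0.89, and 3 cluster features are among the highest of them.

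The rise was not confined to the apolipoprotein genes of this stretch of chromosome 9. On the Apoa1 side, Sik3, a salt-inducible kinase that is the immediate neighbor of Apoa1, was at 7.74, 8.13 and 8.26 (log2) in Ad-GFP cultures and at 8.65, 9.08 and 9.07 in Ad-nuclear CREBH cultures, without overlap. Its log2 fold change was 0.89 (adjusted p = 0.00582 from limma, SE 0.18), against 0.88 for Apoa5. Pafah1b2, a catalytic subunit of a platelet-activating factor acetylhydrolase, rose by 0.65 (adjusted p = 8.02e-04, SE 0.091), and Sidt2, a lysosomal membrane protein, by 1.28 (adjusted p = 1.82e-04, SE 0.13). On the Apoa5 side, Zpr1, a zinc finger protein, did not pass the test, with log2 values of 10.13, 9.84 and 9.81 in Ad-GFP cultures, 10.17, 9.76 and 9.54 in Ad-nuclear CREBH cultures and a log2 fold change of -0.10 (adjusted p = 0.691, SE 0.17) that was 0.040 when arrays were centred on their medians. Bud13, a splicing factor next to Zpr1, had a log2 fold change of 0.47 (adjusted p = 0.0449). That call was lost without any 1 of the Ad-GFP replicates 1, 2 and 3 or the Ad-nuclear CREBH replicates 2 and 3, with adjusted p from 0.0645 to 0.157.

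Of 14 listed genes around the cluster 13 were measured, and 6 of them rose and 3 fell, against 18.6% and 18.1% of all features, with a median log2 fold change of 0.23 against 0.034 over all features. Of the 13, 2 lay below the median level of all features. When only features above it were tested, 3173 of 10609 rose and 3400 fell. Farther out on the Apoa1 side, Bace1, the beta-secretase, had a log2 fold change of 0.80 (adjusted p = 0.035), while Tagln, an actin-binding protein of smooth muscle, fell by 1.15 on the log2 scale (adjusted p = 0.00219) and Cep164, a centriole protein, fell by 0.72 (adjusted p = 0.0444). Cadm1, a cell adhesion molecule on the Apoa5 side, fell by 0.90 (adjusted p = 0.00353). Rexo2, a mitochondrial exonuclease, had a log2 fold change of -0.46 (adjusted p = 0.0813) that passed without Ad-GFP replicate 1 (-0.68, adjusted p = 4.46e-04). The Bace1 call was lost without any 1 of the Ad-nuclear CREBH replicates (adjusted p 0.056 to 0.111), and its log2 fold change was 0.51 without Ad-GFP replicate 1. The Cep164 call was lost in all fits with 1 array left out but that without Ad-GFP replicate 1 (adjusted p 0.0744 to 0.145) and under all 3 other normalizations. Without Ad-nuclear CREBH replicate 2 or replicate 3, 4 of the listed genes rose.

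**Figure D3:**
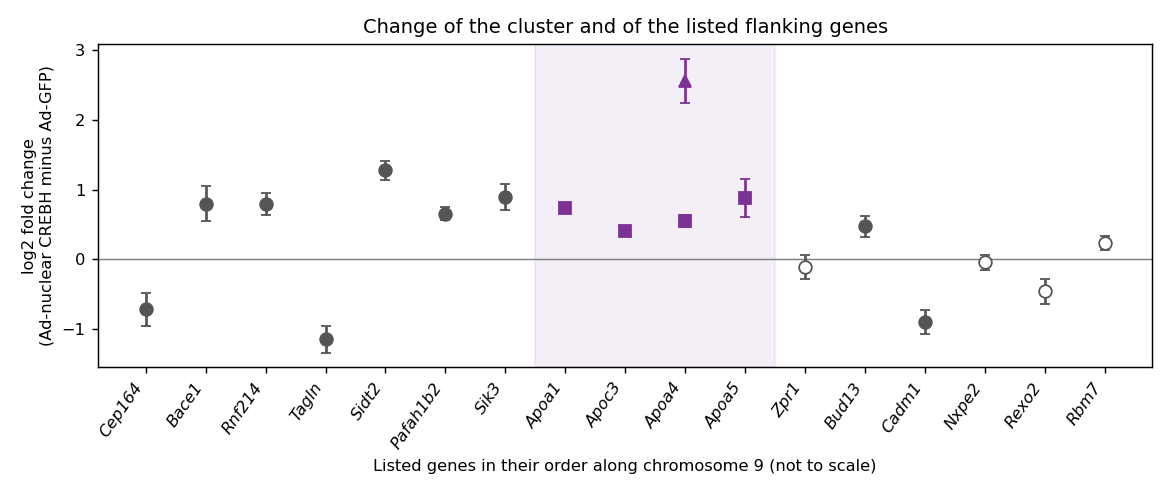
The log2 fold change (Ad-nuclear CREBH minus Ad-GFP) ± SE of the cluster features (purple, shaded; the triangle is the dimmer Apoa4 feature) and of the listed flanking genes (circles; the brightest feature of each gene), in the order of the genes along chromosome 9 in RefSeq, not to scale. Filled symbols passed an adjusted p of 0.05, as all 5 cluster features and Sik3, Pafah1b2 and Sidt2 on the Apoa1 side did, and open symbols did not, as for Zpr1.

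Among genes that encode known regulators of the cluster, 8 of 24 measured rose and 8 fell, against 18.6% and 18.1% of all features, with a median log2 fold change of -0.36. Creb3l3 is counted among those that rose, although the virus carried its coding sequence and its rise was set by the design. Of the 24, 1 lay below the median level of all features. Above that level, 3173 of 10609 features rose and 3400 fell when only these were tested. Ppara, the fatty acid-activated nuclear receptor, was at 6.59, 6.39 and 7.08 (log2) in Ad-GFP cultures and at 9.60, 9.88 and 9.93 in Ad-nuclear CREBH cultures. This was the largest rise of the list, at 3.11 on the log2 scale (adjusted p = 2.55e-05 from limma, SE 0.20). Creb3l3 rose by 2.10 (adjusted p = 9.13e-05, SE 0.19), the virus included, and Cebpb, a bZIP factor, by 1.44 (adjusted p = 0.0017, SE 0.23).

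Nr1h4, the bile acid receptor FXR, was at 7.71, 8.71 and 8.72 in Ad-GFP cultures and at 5.85, 5.92 and 5.59 in Ad-nuclear CREBH cultures, a log2 fold change of -2.59 (adjusted p = 2.02e-04 from limma, SE 0.28). Nr2f6, an orphan receptor of the COUP-TF family, fell by 1.55 (adjusted p = 8.1e-04) and Egr1, an immediate-early zinc finger factor, fell by 1.45 (adjusted p = 0.00221). Hnf4a, the hepatocyte nuclear factor that binds control regions of the cluster, did not pass, its log2 fold change being -0.37 (adjusted p = 0.127, SE 0.17), but passed without Ad-GFP replicate 1 (-0.53, adjusted p = 0.011). Mlxipl, the glucose-responsive factor ChREBP, was at -0.34 (adjusted p = 0.184) and passed without Ad-nuclear CREBH replicate 1 (-0.53, adjusted p = 0.021). Without Ad-GFP replicate 2, 5 regulators fell.

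Genes whose products act with apolipoprotein A-I on HDL changed in both directions. Of 13 measured, 4 rose and 5 fell, against 18.6% and 18.1% of all features, with a median log2 fold change of -0.26. All but 1 lay above the median level of all features. When only features above it were tested, 3173 of 10609 rose and 3400 fell. Lipg, endothelial lipase, which hydrolyzes HDL phospholipids, rose from 4.22, 3.84 and 4.86 (log2) to 7.84, 7.41 and 7.43, a log2 fold change of 3.26 (adjusted p = 6.09e-05 from limma, SE 0.27). The cholesterol exporters Abca1, which loads lipid onto apolipoprotein A-I, and Abcg1 rose by 1.04 (adjusted p = 9.85e-04) and 0.61 (adjusted p = 0.0217). Lcat, the enzyme that apolipoprotein A-I activates, fell by 1.10 (adjusted p = 0.00881, SE 0.25), Apom, an HDL apolipoprotein that carries sphingosine phosphate, fell by 1.66 (adjusted p = 0.0106, SE 0.39), and Pcolce2, an enhancer of procollagen processing that also binds apolipoprotein A-I, fell by 0.84 (adjusted p = 0.0264). Apoa2, the other main HDL apolipoprotein, was at 12.21, 12.09 and 11.95 in Ad-GFP cultures and at 12.70, 12.19 and 11.96 in Ad-nuclear CREBH cultures. The groups overlapped, and the log2 fold change was 0.20 (adjusted p = 0.426, SE 0.17), or -0.012 without Ad-nuclear CREBH replicate 1. The HDL-associated esterase Pon1 was at -0.33 (adjusted p = 0.339), and passed without Ad-nuclear CREBH replicate 1 (-0.63, adjusted p = 0.00541). It was -0.18 without Ad-nuclear CREBH replicate 2 and -0.17 without replicate 3. The Abcg1 call was lost in all fits with 1 array left out but that without Ad-GFP replicate 1 (adjusted p 0.0502 to 0.0873), and the Pcolce2 call without Ad-nuclear CREBH replicate 1 (adjusted p = 0.077) or replicate 3 (adjusted p = 0.0682) and under all 3 other normalizations. Without Ad-GFP replicate 2, Ad-nuclear CREBH replicate 2 or Ad-nuclear CREBH replicate 3, 2 of these genes rose, and without Ad-nuclear CREBH replicate 3, 3 fell.

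The genes listed for triglyceride-rich lipoproteins include some that act in plasma or as receptors and some that act inside the cell, on particle assembly or lipid droplets. Of 20 measured, 7 rose and 5 fell, against 18.6% and 18.1% of all features, with a median log2 fold change of 0.041. Below the median level of all features lay 4 of these genes. Of the 10609 features above it, 3173 rose and 3400 fell when only these were tested. Apoc2, which encodes the activator of lipoprotein lipase, was at 11.01, 10.41 and 11.29 (log2) in Ad-GFP cultures and at 12.70, 12.74 and 12.83 in Ad-nuclear CREBH cultures, a log2 fold change of 1.85 (adjusted p = 1.91e-04 from limma, SE 0.20). Cidec, a lipid droplet protein, was at 9.42, 6.70 and 9.56 in Ad-GFP cultures and at 12.13, 12.28 and 12.36 in Ad-nuclear CREBH cultures. As with both Apoa4 features, Ad-GFP replicate 2 was the lowest array for Apoc2 and Cidec, and the log2 fold change of Cidec, 3.70 (adjusted p = 0.00302, SE 0.67), was 2.77 without it. Tm6sf2, a membrane protein needed to load triglyceride onto VLDL, rose by 2.09 (adjusted p = 1.55e-04, SE 0.21).

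Among receptors of this list, Sorl1 and Sort1, sorting receptors of the sortilin family, fell by 2.28 (adjusted p = 0.00403, SE 0.44) and fell by 1.17 (adjusted p = 0.0432, SE 0.38), and Lrp1, a receptor for remnant particles, fell by 1.05 (adjusted p = 0.0119, SE 0.25). Apob, the structural protein of VLDL, and Apoe, a ligand for remnant uptake, were bright and close to 0, with log2 fold changes of 0.03 (adjusted p = 0.869, SE 0.13) and 0.0021 (adjusted p = 0.982, SE 0.058), and the sign of both changed with cyclic loess normalization (-0.034 and -0.072). The Sort1 call was lost without Ad-GFP replicate 2 or replicate 3 or Ad-nuclear CREBH replicate 1 or replicate 3 (adjusted p 0.0928 to 0.133). Without Ad-nuclear CREBH replicate 2 or replicate 3, 3 genes of the list fell.

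Of the 11 apolipoprotein genes outside the cluster, 2 rose and 2 fell, with a median log2 fold change of 0.035, against 18.6% and 18.1% of all features. Only 1 of the 11 lay below the median level of all features. Among features above it, tested by themselves, 3173 of 10609 rose and 3400 fell. Apoc2 rose, as above, and Apoc1, which belongs with it to another apolipoprotein cluster, had a log2 fold change of 0.30 (adjusted p = 0.0253 from limma, SE 0.086). Apoe, also of that other cluster, did not pass, as above. Apom fell, as above, and Apof, an inhibitor of lipid transfer between particles, had a log2 fold change of -0.41 (adjusted p = 0.0406), which was -0.27 with arrays centred on their medians. Clu, clusterin, was at -0.02 (adjusted p = 0.799, SE 0.052), and 0.12 with arrays centred on their medians. The Apoc1 call was lost without Ad-GFP replicate 2 or replicate 3 or Ad-nuclear CREBH replicate 2 (adjusted p 0.0803 to 0.099), and the Apof call in all fits with 1 array left out but that without Ad-GFP replicate 1 (adjusted p 0.0676 to 0.148). Without Ad-GFP replicate 2 or replicate 3 or Ad-nuclear CREBH replicate 2, 1 gene of the list rose and 1 fell, and without Ad-nuclear CREBH replicate 3, 1 fell.

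**Figure D4:**
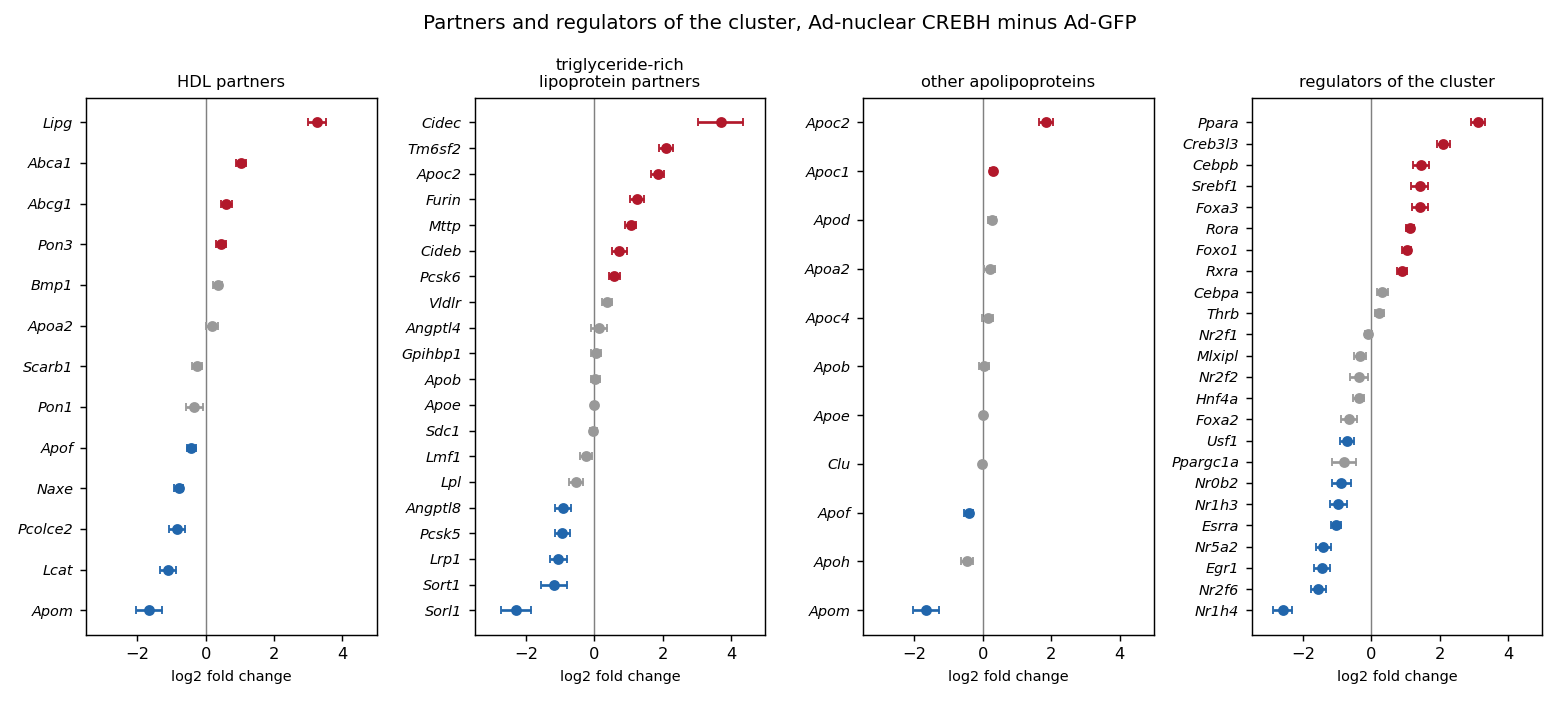
The log2 fold change (Ad-nuclear CREBH minus Ad-GFP) ± SE of genes listed for HDL or for triglyceride-rich lipoproteins, of the other apolipoprotein genes and of regulators of the cluster. Red symbols rose and blue symbols fell at an adjusted p under 0.05, and grey symbols did not pass; Cidec reaches 3.70 and Nr1h4 is lowest at -2.59.

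Among markers of other liver cells, most of those of stellate cells and macrophages lay below the median level of all features. So did 3 of 5 cholangiocyte markers, but only 2 of 8 endothelial ones. Cd68 (a mean log2 value of 10.92) and Sox9 (8.36) were the brightest of their lists. The counts of these lists stand against 18.6% of all features that rose and 18.1% that fell. Of 8 stellate cell markers 7 lay below the median level of all features, 0 rose and 1 (Reln, reelin, -1.90, adjusted p = 1.69e-04) fell by limma's adjusted p, against 2 and 1 at an unadjusted p under 0.05, while Col1a1 was at 1.63 (adjusted p = 0.0627) and passed without Ad-nuclear CREBH replicate 1 (2.43, adjusted p = 2.25e-04). The summed linear level of this list was between 181 and 198 on the Ad-GFP arrays and between 124 and 343 on the Ad-nuclear CREBH arrays. Of 11 macrophage markers 7 lay below that level, 1 rose (Csf1r, a growth factor receptor, 0.61, adjusted p = 0.0259, named after its values had been seen) and 3 fell, among them Cd68 (-1.13, adjusted p = 0.0218) and Lyz2 (-0.57, adjusted p = 0.0414), with sums from 2715 to 3703 and from 1239 to 2644. Cd68, at a mean log2 value of 10.92 against 5.99 for Lyz2, the next brightest, made up most of these sums. Of the 11 macrophage markers, 7 did not pass. The rise of Csf1r did not pass without Ad-GFP replicate 2 (0.56, adjusted p = 0.0921) or 3 (0.64, adjusted p = 0.0621), or without Ad-nuclear CREBH replicate 1 (0.47, adjusted p = 0.0599) or 3 (0.63, adjusted p = 0.0709). The Cd68 call was lost without Ad-GFP replicate 1 or replicate 2 or Ad-nuclear CREBH replicate 2 or replicate 3 (adjusted p 0.0551 to 0.0823), and the Lyz2 call without any 1 array but Ad-nuclear CREBH replicate 2 (adjusted p 0.0608 to 0.13). Of 8 endothelial markers 0 rose and 0 fell by limma's adjusted p, and 1 was higher and 1 lower at an unadjusted p under 0.05, with sums from 305 to 402 and from 323 to 412, and with Oit3 at 0.56 (adjusted p = 0.0504), which passed without Ad-nuclear CREBH replicate 1 (adjusted p = 0.00994), and Cdh5 at 0.01 (adjusted p = 0.969). Of 5 cholangiocyte markers 1 rose (Epcam, 1.74, adjusted p = 2.63e-04) and 1 fell, with sums from 243 to 574 and from 409 to 612. Sox9 was at 0.58 (adjusted p = 0.278), 1.02 (adjusted p = 0.0109) without Ad-GFP replicate 1, but 0.30 when replicate 3 of that group was left out. The part of these cells in the rise of the cluster was not tested.

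The features whose profile over the 6 arrays was most like that of each cluster feature were found by the root mean square difference of log2 values, each centred on its own mean. For Apoa1 they were Zfand6 (0.0239), Prpf6 (0.0384) and Srp72 (0.040). For Apoc3 they were Yif1b (0.0246), Pmp2 (0.0326) and Snx20 (0.0338), and for the brighter Apoa4 feature Pde3b (0.0534), Nrg2 (0.0584) and Nxpe3 (0.062). Pmp2, Snx20, Nrg2 and Nxpe3 were dim, with group means from 2.65 to 4.30 (log2), below the medians of the arrays. The dimmer Apoa4 feature had none as close, with Gata3 (0.182), Cdr2 (0.208) and Relt (0.21) nearest, and Apoa5 had Kdm5b (0.105), Helz (0.114) and Lats2 (0.12). Features of the cluster itself were left out of this search.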

How the data were processed

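Expression was measured in primary mouse hepatocytes on Affymetrix Mouse Gene 1.1 ST arrays, 3 per group, and all 6 were used, with groups taken from the sample labels. The log2 values deposited by the authors came from RMA (background correction, normalization across arrays and a summary of the probes of each feature), of which no version is given in the submitters' processing notes. RMA gives no detection flag, and the fold change of a dim or very bright feature can be understated. Features were named from the platform's annotation: 21218 with exactly 1 symbol were used, and 1881 with more than 1 symbol and 12457 with no symbol were not.

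The groups were compared with limma 3.58.1 in R 4.3.3 (lmFit, eBayes with an intensity trend, prior degrees of freedom 3.95 beside 4 residual ones), with no covariate. The fit was also run on simulated data with far fewer changed features than here, which cannot give the error rate of these calls. "Rose" and "fell" stand for an adjusted p under 0.05, by Benjamini-Hochberg over the 21218 features. For listed genes the feature with the highest mean was used. The linear group mean over 300 of the methods' criteria was asked of at least 1 group. Figures were drawn with matplotlib 3.10.9.

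The members and lists were chosen with earlier results of these data known. Named are the nearest flanking genes, Creb3l3, Hnf4a and Ppara, up to 3 largest rises and falls and 2 brightest genes that did not pass per list, the 2 brightest of each marker list, and the 3 features most like each cluster feature. Some of the listed genes are not reported here. Alternatives covered the variance prior, the methods' intensity-based statistic and criteria, weights of the arrays, a block for the replicate number, 3 other normalizations, the features used and leaving out arrays.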

Additional observations from a re-analysis of the deposited data

How the results depend on the processing

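Apoa1, Apoc3 and the brighter Apoa4 feature kept their rise and their call in 17 of 18 alternatives, the dimmer Apoa4 feature in 17 of 17 and Apoa5 in 12 of 18. The criteria of the methods, which ask for a 2-fold change, left out Apoa1 (log2 fold change 0.74), Apoc3 (0.41), the brighter Apoa4 feature (0.55) and Apoa5 (0.88), and gave 993 features risen and 643 fallen. With all 35556 rows tested, Apoa5 (0.88) had an adjusted p of 0.0575. With 1 array left out, the log2 fold change of Apoa5 was between 0.71 and 1.20, with adjusted p from 0.00164 to 0.123, and Apoa1 minus Apoa5 was between -0.44 and 0.0049.

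Whether the numbers of the replicates pair the samples was not resolved. The deviations of arrays with the same number correlated at 0.198, 0.0771 and 0.156. For Ad-GFP replicates 1 and 3 this was the best match, but Ad-GFP replicate 2 correlated best with Ad-nuclear CREBH replicate 3 (0.101). With the replicate block, 4087 features rose and 4262 fell, the 5 cluster features kept their calls, Hnf4a (adjusted p = 0.0311) and Oit3 (adjusted p = 0.029) passed, and Pcolce2 (adjusted p = 0.0518) did not. It changed no other call among the named genes.

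With arrays centred on their medians, 3 HDL partners and 1 other apolipoprotein fell, and Alb was at 0.13, Clu at 0.12 and Zpr1 at 0.040. With array weights 13 regulators fell, in a fit in which 5225 of all features fell against 3837, with Apob at -0.049, Apoe at -0.021, Clu at 0.014 and Cdh5 at -0.070. With both arrays numbered 1 left out (chosen for lists and other genes after seeing the data), 13 regulators and 5401 of all features fell, with Apob at -0.061, Apoe at -0.027, Clu at 0.028 and Cdh5 at -0.080. With cyclic loess 1 other apolipoprotein rose, with Apob at -0.034 and Apoe at -0.072. Quantile normalization put Clu at 0.047, 1 other apolipoprotein rose without the intensity trend, 1 fell with all rows tested, and 3 triglyceride-rich lipoprotein partners fell among features above the median level. The causes were not tested.

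With 1 array left out, 2 to 4 HDL partners rose and 3 to 5 fell, 1 to 2 other apolipoproteins rose and 1 to 2 fell, 5 to 10 regulators fell and 3 to 5 triglyceride-rich lipoprotein partners fell. The log2 fold change was then between -0.038 and 0.0074 for Alb, -0.012 and 0.36 for Apoa2, -0.12 and 0.12 for Apob, -0.042 and 0.026 for Apoe, -0.21 and 0.14 for Cdh5, -0.043 and 0.021 for Clu and -0.28 and 0.036 for Zpr1. Precision is limited by the 6 arrays.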

Other observations

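Apolipoprotein A-IV and Apob are also products of enterocytes, so genes of that cell type were listed. Of 8 measured, 2 rose and 1 fell, near the 18.6% and 18.1% of all features, and 5 lay below the median level of all features. The 5 that did not pass were Apob, as above, and the dim Sis, Lct, Alpi and Cdx2. These dim genes, named after their values had been seen, had mean log2 values of 2.56, 3.55, 3.43 and 3.20. Fabp2, the intestinal fatty acid-binding protein, was at 6.06, 5.57 and 6.23 (log2) on the Ad-GFP arrays and at 9.23, 9.11 and 9.05 on the Ad-nuclear CREBH arrays, a log2 fold change of 3.17 (adjusted p = 2.29e-05 from limma, SE 0.19). It was named after its values had been seen. Mttp, which loads lipid onto apolipoprotein B, was at 9.36, 9.89 and 9.92 on the Ad-GFP arrays and at 10.74, 10.83 and 10.80 on the Ad-nuclear CREBH arrays, a log2 fold change of 1.07 (adjusted p = 9.14e-04, SE 0.15). The brush border gene Vil1 fell by 1.50 on the log2 scale (adjusted p = 0.0171), and it too was named after its values had been seen. Its fall did not pass without Ad-GFP replicate 2 (-1.18, adjusted p = 0.05002) or 3 (-1.32, adjusted p = 0.0579), or without Ad-nuclear CREBH replicate 2 (-1.51, adjusted p = 0.0534) or 3 (-1.45, adjusted p = 0.0585).

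Sidt2 and Cep164, like Apoa4, had 2 features each. The dimmer Sidt2 feature had a log2 fold change of 2.10 (adjusted p = 7.86e-05, SE 0.18) against 1.28 for the brighter one, and of the features numbered next to the dimmer one 9 of 10 were on the plus strand, opposite to Sidt2. The Cep164 features were at -0.72 and -0.94.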
